A study of Mus musculus with 6 samples.

Results

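The genes described here encode proteins that move, mark or silence chromatin: the SWI/SNF, ISWI and CHD remodellers, both Polycomb complexes, the enzymes that methylate, demethylate, acetylate or deacetylate histones, and enzymes that add or oxidise DNA methylation. They were taken from a fixed list of 57 mouse gene symbols. Each gene was read by the probe set (the group of short oligonucleotides that reads a transcript) with the highest mean signal over the 6 arrays, among probe sets annotated with that symbol alone. This found 56 of the 57 genes, out of 18193 genes that the array names in this way. The remaining symbol, Suv39h1, is not analysed here.

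Total RNA came from primary mouse myoblasts, the muscle precursors that fuse into myotubes, with an age label of 21 days on every sample. The shRNA group (3 arrays) had received a lentivirus made from the Tet-pLKO-puro vector, carrying short hairpin RNA against LncMyoD, a long non-coding RNA studied for its part in muscle differentiation. The control group (3 arrays) is labelled only as control, and what those cells received is not stated. Neither the inducer of the vector, nor the number of hairpins, nor the medium at harvest (growth or low-serum differentiation medium) is given in the sources used here. The labels call the replicates biological but do not trace them to different mice or dishes. The p-values therefore cover the spread among these 6 arrays alone, and that spread may be technical.

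SWI/SNF complexes use ATP to slide or evict nucleosomes, and myogenic factors such as MyoD recruit them to muscle promoters. Polycomb complex 2 (PRC2) methylates lysine 27 of histone H3 and, with Polycomb complex 1 (PRC1), keeps genes silent, muscle genes in proliferating myoblasts included. Acetyltransferases such as p300 and PCAF are coactivators of MyoD, and histone deacetylases oppose them. The comparison asks which of these transcripts differed when LncMyoD was targeted.

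Marker genes were checked first. All 5 myoblast markers (Myod1, Myf5, Pax7, Cdh15 and Des) were bright enough to be tested. Of these, 3 rose (Myf5, Pax7 and Cdh15), as did 35.7% of all genes tested, while Myod1 (0.023) and Des (0.034) did not pass. The summed log2 signals of the 5 were 57.9 to 58.5 on control arrays and 59.7 to 60.1 on shRNA arrays. All 5 markers of differentiated muscle fell, as did 22.8% of all genes tested. The sums of these 5 markers were 65.8 to 66.1 on control arrays and 63.9 to 64.1 on shRNA arrays. These sums rest largely on Ckm, which fell by 1.41. Myog, Acta1, Myh3 and Tnnt1 fell by only 0.088 to 0.15 and stayed bright in the shRNA group, with means of 13.2 to 14.0. Of 20 tested DNA replication genes 12 rose and 3 fell, against 35.7% and 22.8% of all genes tested. The sums over the 24 genes found were 212.8 to 214.7 on control arrays and 218.7 to 219.8 on shRNA arrays. Of the 4 that lay below the filter on low signals and were not tested, Mcm5 (-0.99) and Tk1 (-0.46) were lower in shRNA samples without overlap. Cdc6 (0.091) and Orc1 (-0.0015) overlapped between the groups. All 5 endothelial, both adipocyte markers found and the Schwann cell marker found lay below the filter on low signals. Of 6 fibroblast markers 3 were tested (1 rose, 2 fell), of 5 leukocyte markers 3 (1 rose), and of 3 smooth muscle markers 2 (1 fell). The leukocyte marker that rose, Cd68, had a control mean of 6.40, below the 6.50 at which the filter on low signals begins. It was tested only through its shRNA arrays (mean 6.73), so its rise is not read as a result. RNA integrity was read from the actin controls, whose 3′ signal exceeded their 5′ signal on the log2 scale by 0.51 ± 0.018 in control samples and 0.55 ± 0.017 in shRNA samples (SD, n = 3 each, two-sided exact permutation p = 0.1, the smallest possible). For the GAPDH controls it was 0.14 ± 0.045 and 0.23 ± 0.038, with the same exact permutation p of 0.1. These shifts ran with the groups beside every result that follows, and their part in the results was not tested. In RNA from whole cultures, fewer cells of a type and less RNA per cell cannot be told apart.

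The chromatin genes were split between both directions, and most moved little. The largest increases were those of the remodeller Chd1 (1.70-fold), the PRC2 methyltransferase Ezh2 (1.63-fold), the acetyltransferase Kat2b (1.55-fold), the PRC2 subunit Eed (1.44-fold) and the PRC1 subunit Cbx2 (1.41-fold). The largest decreases were those of the deacetylase Hdac11 (1.85-fold) and the PRC2 subunit Suz12 (1.45-fold). The class I deacetylases Hdac1, Hdac2 and Hdac3, the PRC1 core genes Bmi1 and Rnf2 and the arginine methyltransferases Carm1 and Prmt1 did not pass the threshold.

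Of the 56 genes, 17 rose, 16 fell and 23 did not pass (limma, Benjamini-Hochberg adjusted p under 0.05 over all probe sets tested). That is 58.9% past the threshold, against 58.5% of all 12408 genes tested, so the share of called genes was that of the array as a whole. Of the 56 genes 30.4% rose, against 35.7% of all genes, and 28.6% fell, against 22.8%. With the tested probe sets of each array centred on their own median, which moved the median difference of all genes from 0.045 to -0.019, 17 of the 56 rose and 21 fell, against 29.2% and 29.6% of all genes, so the balance of directions depends on the scaling. The arrays of the groups did not overlap in 37 of the 56 genes (66.1%), against 64.7% of all genes. The median difference was -0.017 on the log2 scale, against 0.045 over all genes, and the median size was 0.21 in both. A difference of at least 0.5 that passed the threshold was found in 7 of the 56 (12.5%), against 17.7% of all genes. These were 5 increases, against 10.6% of all genes, and 2 decreases, against 7.11%. All 56 genes passed the filter on low signals, which 68.2% of the array's named genes passed. Counts by role below rest on few genes each and are read beside the shares of all genes, 35.7% higher and 22.8% lower.

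**Figure D1:**
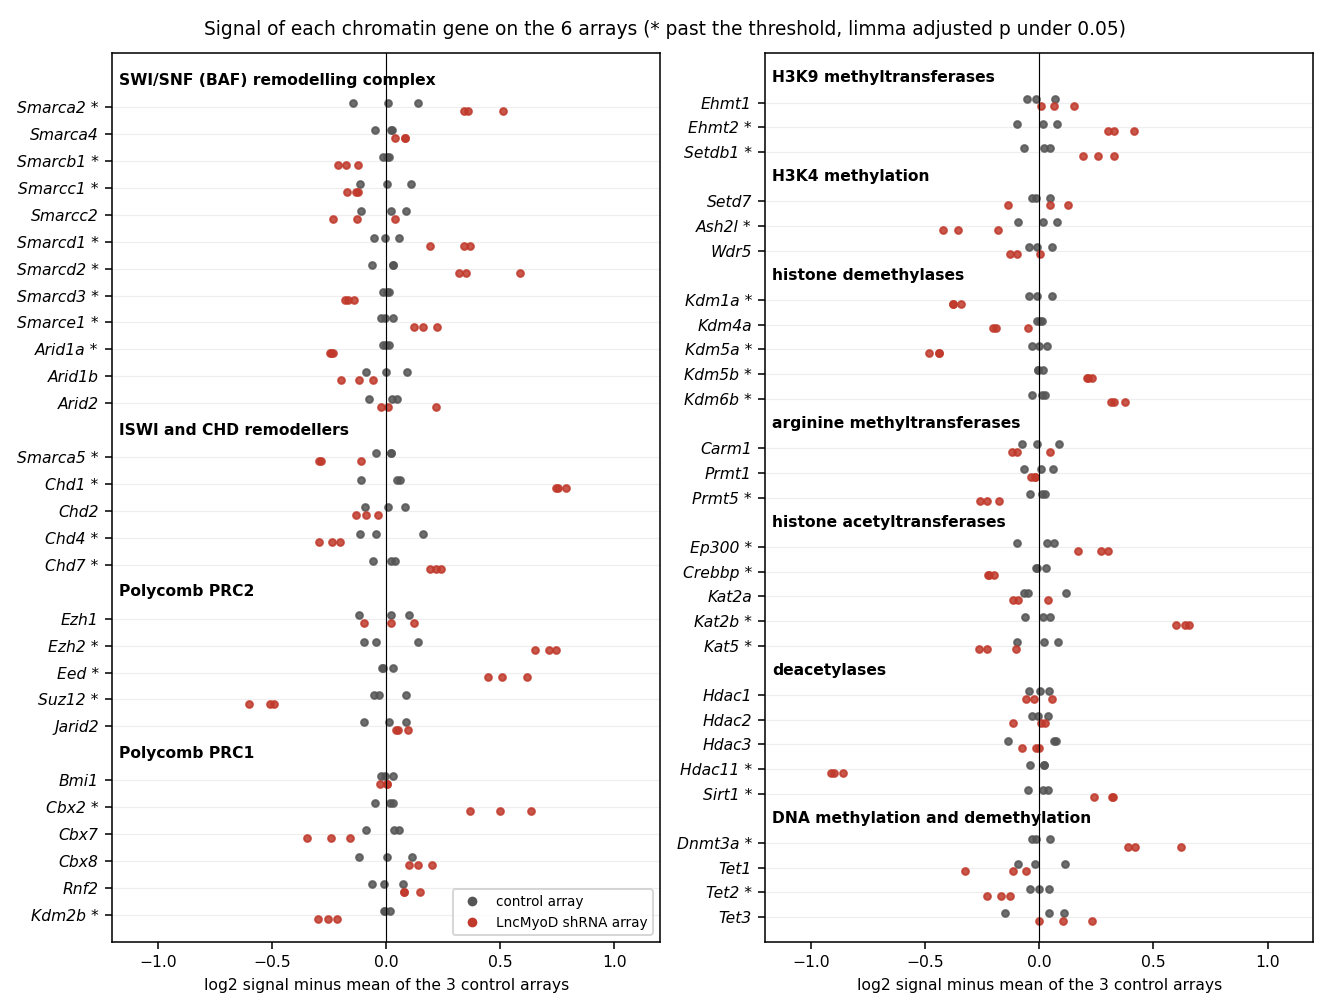
Log2 signal of each of the 56 genes on each array, minus the mean of its 3 control arrays (x axis), by role. Grey points are control arrays, red points LncMyoD shRNA arrays, and an asterisk marks a gene past the threshold. Hdac11 lies farthest left (a difference of -0.89) and Chd1 farthest right (0.76), while Hdac1, Hdac2 and Hdac3 overlap between the groups.

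Within the core of PRC2, Ezh2 and Eed moved against Suz12. Ezh2, its catalytic subunit, stood at 10.68, 10.49 and 10.44 on the control arrays and at 11.19, 11.28 and 11.25 on the shRNA arrays (log2 signal). Every shRNA array lay above every control array, with a difference of 0.70 (SE 0.061, limma adjusted p = 8.19e-07). Eed, the subunit that binds the methylated histone tail, read 11.15, 11.20 and 11.15 on control arrays and 11.67, 11.78 and 11.61 on shRNA arrays. It rose by 0.52 (SE 0.049, limma adjusted p = 1.54e-06), again without overlap. Suz12, the scaffold that holds the complex together, went the other way, from 11.95, 11.80 and 11.82 to 11.26, 11.35 and 11.37. Its groups were also apart, and it fell by 0.53 (SE 0.050, limma adjusted p = 1.43e-06). All 6 tested probe sets of Suz12 fell, with differences from -0.53 to -0.82, whereas Ezh2 and Eed each had 1 tested probe set. The dimmest of Suz12 had an shRNA mean of 6.36, against 6.99 in controls. It was tested only through its control arrays, as the filter on low signals begins at 6.50.

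Ezh1, the second PRC2 methyltransferase, which is less active and common in resting cells, did not pass. Its control arrays stood at 9.45, 9.37 and 9.23 and its shRNA arrays at 9.47, 9.37 and 9.25, a difference of 0.015 with a 95% interval from -0.16 to 0.19. Jarid2, which helps to place PRC2 on its targets, stood at 10.69, 10.62 and 10.51 on control arrays and at 10.65, 10.71 and 10.66 on shRNA arrays. Its difference was 0.063 (95% interval -0.056 to 0.18). For Ezh1 and Jarid2 the groups overlapped, and none of their 3 tested probe sets each passed. Of 4 further PRC2 genes tested (Phf1, Mtf2, Phf19 and Aebp2, accessory subunits) 0 passed in limma, with 1 at an unadjusted p under 0.05. Rbbp4 and Rbbp7, counted here with the remodellers, did not pass (0.0053 and 0.0019).

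Ratios within an array show how far these genes moved against each other. They were chosen with the values known, so no test was made. The log2 ratio of Ezh2 to Suz12 was 1.24 higher in the shRNA group, with SDs of 0.059 in controls and 0.027 in shRNA samples, and that of Eed to Suz12 was 1.06 higher (SDs 0.096 and 0.10). The ratio of Ezh2 to Eed was 0.18 higher (SDs 0.14 and 0.075), with overlapping ranges of -0.71 to -0.47 on control arrays and -0.50 to -0.36 on shRNA arrays.

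The promoters of these 3 PRC2 genes, which belong to 1 complex and moved in opposite directions, and of Hdac11, which had the largest decrease, are given here from RefSeq (GRCm38.p6), each from 250 bases before to 50 bases after the gene's start. Capitals mark matches on either strand to TTTCCCGC or TTTNGCGC (letters of sites for E2F, the cell cycle factors), to CAGCTG (an E-box, the kind of site that myogenic factors bind) or to CCAAT.
Ezh2, chr6:47594981-47595280, minus strand: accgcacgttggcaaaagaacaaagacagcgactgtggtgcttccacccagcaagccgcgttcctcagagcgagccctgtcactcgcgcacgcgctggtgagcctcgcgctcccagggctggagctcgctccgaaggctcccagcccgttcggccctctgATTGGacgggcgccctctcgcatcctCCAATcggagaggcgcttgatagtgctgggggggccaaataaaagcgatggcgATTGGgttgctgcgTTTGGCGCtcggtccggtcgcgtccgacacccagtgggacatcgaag
Eed, chr7:89980927-89981226, minus strand: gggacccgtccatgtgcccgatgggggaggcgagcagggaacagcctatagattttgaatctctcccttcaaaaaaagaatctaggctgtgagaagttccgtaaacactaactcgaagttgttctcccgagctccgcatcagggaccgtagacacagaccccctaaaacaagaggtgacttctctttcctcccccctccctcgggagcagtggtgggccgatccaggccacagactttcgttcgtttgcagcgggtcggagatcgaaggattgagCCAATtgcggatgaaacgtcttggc
Suz12, chr11:79992856-79993155, plus strand: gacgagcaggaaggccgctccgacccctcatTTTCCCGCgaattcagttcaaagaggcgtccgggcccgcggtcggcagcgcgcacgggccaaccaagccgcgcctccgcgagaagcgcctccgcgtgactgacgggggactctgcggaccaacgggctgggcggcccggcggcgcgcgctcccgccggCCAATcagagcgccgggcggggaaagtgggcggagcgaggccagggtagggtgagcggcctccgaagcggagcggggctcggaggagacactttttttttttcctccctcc
Hdac11, chr6:91156565-91156864, plus strand: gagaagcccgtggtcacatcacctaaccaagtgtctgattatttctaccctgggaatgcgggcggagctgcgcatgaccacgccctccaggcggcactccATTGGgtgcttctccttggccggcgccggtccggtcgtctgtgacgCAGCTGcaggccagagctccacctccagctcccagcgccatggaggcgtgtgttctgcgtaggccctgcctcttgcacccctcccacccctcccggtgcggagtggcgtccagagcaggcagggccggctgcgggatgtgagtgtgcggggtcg
The Ezh2 window held 1 match to TTTNGCGC and 3 to CCAAT, and that of Suz12, which fell, held 1 match to TTTCCCGC and 1 to CCAAT. The Eed window held 1 CCAAT and none of the other motifs, and that of Hdac11 held 1 CAGCTG and 1 CCAAT. Over the promoters of all 27025 genes in the table, TTTCCCGC was found in 1.11%, TTTNGCGC in 1.38%, CAGCTG in 16.1% and CCAAT in 37.9%. Promoters were found for 44 of the 56 genes, of which 2 held TTTCCCGC (Suz12 and Smarcd1, 4.55%), 1 held TTTNGCGC (Ezh2, 2.27%), 7 held CAGCTG (15.9%) and 16 held CCAAT (36.4%). These matches describe letters in a window and not binding.

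**Figure D2:**
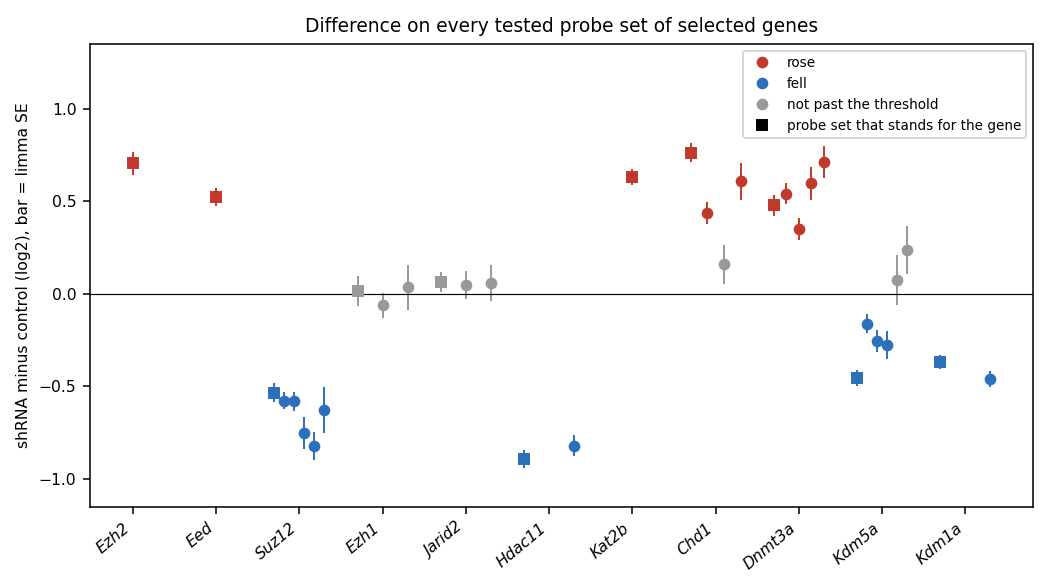
Difference between shRNA and control (log2, y axis) with limma's SE as the bar, on every tested probe set of 11 genes (x axis). Squares are the probe sets that stand for the gene, red marks increases and blue decreases past the threshold, and grey marks probe sets not past it. All 6 probe sets of Suz12 lie between -0.53 and -0.82, and all 5 of Dnmt3a above 0.

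PRC1, which reads the PRC2 mark and ubiquitinates histone H2A, had 1 gene that rose and 1 that fell among 6. Cbx2, a subunit that binds the methylated tail, stood at 7.83, 7.81 and 7.75 on control arrays and at 8.16, 8.43 and 8.29 on shRNA arrays. The groups did not overlap, and Cbx2 rose by 0.50 (SE 0.096, limma adjusted p = 0.000676). Kdm2b, which brings a variant PRC1 to unmethylated CpG islands, fell by 0.26 (SE 0.037, limma adjusted p = 7.04e-05), on both of its probe sets.

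Cbx7 and Cbx8, which compete with Cbx2 for the same place in PRC1, did not pass. Cbx7 read 7.49, 7.62 and 7.63 on control arrays and 7.34, 7.23 and 7.42 on shRNA arrays, apart between the groups but with a limma adjusted p of 0.0569. Cbx7 passed with the arrays centred on their medians (-0.31) and stood at 0.030 on the probe sets that remain without those of the _x_at and _s_at kind, which can bind more than their target. Cbx8 overlapped, at 9.02, 8.91 and 8.79 against 9.04, 9.01 and 9.11. Its other tested probe set stood 0.33 higher without overlap but did not pass (limma adjusted p = 0.0551). Without control array 1, Cbx8 passed on its brightest probe set (0.20, limma adjusted p = 0.0386). The core genes stood close together: Bmi1, the partner of the ubiquitin ligase, at 12.08, 12.03 and 12.05 in controls against 12.02, 12.05 and 12.05, and the ligase Rnf2 at 12.08, 12.00 and 11.95 against 12.09, 12.09 and 12.16. The 95% interval of the difference was -0.089 to 0.074 for Bmi1 and 0.0062 to 0.20 for Rnf2. Of 13 further PRC1 genes tested 2 rose, the chromobox gene Cbx6 by 0.77 (SE 0.039) and Pcgf2, a relative of Bmi1, by 0.30 (SE 0.068). The 4 that fell were led by the ligase Ring1, the paralog of Rnf2 (-0.44, SE 0.074), and the corepressor Bcor (-0.41, SE 0.051).

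SWI/SNF was evenly split over its 12 genes, with 4 higher, 4 lower and 4 not past the threshold, and no difference reached 0.5. The ATPase Smarca2 (BRM) rose by 0.40 (SE 0.074, limma adjusted p = 0.000480), on both of its probe sets. Smarca4 (BRG1), the alternative ATPase, did not pass and stood at 10.86, 10.93 and 10.93 in controls and at 10.95, 10.99 and 10.99 in shRNA samples, 0.068 higher (95% interval -0.031 to 0.17) with no overlap, while its other probe set rose by 0.20 (SE 0.063). The BAF60 subunits, which link the complex to transcription factors, also split. Smarcd2 (BAF60b) rose by 0.42 (SE 0.061), on all 3 of its probe sets, and Smarcd1 (BAF60a) by 0.30 (SE 0.075). Smarcd3 (BAF60c), the form that works with MyoD in muscle, stood at 12.44, 12.43 and 12.42 in controls and at 12.26, 12.25 and 12.29 in shRNA samples. Its groups were narrow and apart, with a decrease of 0.16 (SE 0.036, limma adjusted p = 0.00175). The log2 ratio of Smarcd2 to Smarcd3 was 0.58 higher on shRNA arrays (SDs 0.042 and 0.13), and that of Smarcd1 to Smarcd3 was 0.46 higher (SDs 0.044 and 0.091).

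The DNA-binding subunit Arid1a fell by 0.24 (SE 0.045) on a probe set whose arrays differed by an SD of 0.011 in controls and 0.0058 in shRNA samples, and its other probe set fell as well. Its paralog Arid1b stood at -0.13 (SE 0.051, limma adjusted p = 0.0559), and their log2 ratio shifted by -0.12 (SDs 0.078 and 0.072). Arid2, of the PBAF form of the complex, did not pass on its brightest probe set (0.068), although both other tested probe sets rose. Smarce1 rose by 0.17 (SE 0.037), or by 0.11 with the arrays centred, but its other tested probe set did not pass (0.098, limma adjusted p = 0.0623). The core subunits Smarcb1 and Smarcc1 fell by 0.17 (SE 0.041) and 0.14 (SE 0.051), but each call was lost under other settings. Smarcb1 did not pass as the mean of its probe sets (-0.12, limma adjusted p = 0.0661) or without the _x_at and _s_at probe sets, the less specific kinds (-0.021, 0.712). Smarcc1 no longer passed when the fit left out control 1 (-0.087, limma adjusted p = 0.125) or control 3 (-0.14, 0.0803). Leaving out any of the shRNA arrays 1, 2 and 3 also ended its call, at -0.13 (0.0886), -0.15 (0.0591) and -0.15 (0.0566). On another probe set Smarcc1 fell by 0.74 (SE 0.11, limma adjusted p = 6.91e-05), on the remaining one tested it stood at -0.090 (0.129), and the mean of its probe sets fell by 0.32 (0.000440). Smarcc2, its partner, stood at -0.11 (SE 0.069) and did not pass.

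Of 10 further genes of these complexes that were tested, 3 rose and 6 fell, among them Dpf2 (-0.84, SE 0.041), a BAF subunit that reads acetylated histones, and Phf10 (-0.80, SE 0.039), a PBAF subunit tied to proliferating precursors. Ss18, a core BAF subunit, rose by 0.44 (SE 0.041) and Bcl7b by 0.40 (SE 0.053). Of these 10 genes 90% passed the threshold, against 58.5% of all genes.

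Chd1, a remodeller that binds trimethylated lysine 4 of histone H3 at active promoters, had the largest increase. Its control arrays read 10.66, 10.50 and 10.67 and its shRNA arrays 11.36, 11.37 and 11.40, with no overlap. The difference was 0.76 (SE 0.053, limma adjusted p = 1.04e-07). Of its other 3 tested probe sets 2 rose (0.44 and 0.61) and 1 did not pass (0.16), and the mean over its probe sets rose by 0.49. Chd2, its closest relative, overlapped between the groups, at 10.28, 10.38 and 10.46 against 10.34, 10.28 and 10.24, but its other probe set fell by 0.20 (SE 0.055). Chd7, the remodeller mutated in CHARGE syndrome, rose by 0.22 (SE 0.040), on both probe sets. Chd4, the ATPase of the repressive NuRD complex, fell by 0.24 (SE 0.064), on all 3 probe sets, and Smarca5, the ATPase of ISWI complexes, fell by 0.23 (SE 0.049). Of Smarca5's other 3 probe sets 2 fell and 1 did not pass. Among 21 further remodeller genes 10 rose and 3 fell, or 61.9% past the threshold, against 58.5% of all genes. The helicase Hells rose by 0.61 (SE 0.13) and the NuRD subunit Mta2 by 0.38 (SE 0.058), while Baz2a, a partner of Smarca5 at ribosomal genes, fell by 0.62 (SE 0.038) and Srcap by 0.34 (SE 0.088).

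Of 5 histone acetyltransferases 2 rose and 2 fell. Kat2b (PCAF), which acetylates MyoD, stood at 11.73, 11.62 and 11.70 in controls and at 12.28, 12.32 and 12.33 in shRNA samples. The groups were apart, with an increase of 0.63 (SE 0.042, limma adjusted p = 6.65e-08) on the gene's only tested probe set, of the less specific _s_at kind. Its paralog Kat2a (GCN5) overlapped, at 8.94, 8.78 and 8.76 against 8.86, 8.71 and 8.73, a difference of -0.058 (95% interval -0.24 to 0.12). The log2 ratio of Kat2b to Kat2a was 0.69 higher on shRNA arrays (SDs 0.078 and 0.11).

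Ep300 (p300) rose by 0.25 (SE 0.050, limma adjusted p = 0.00100), from 12.20, 12.07 and 12.23 to 12.34, 12.44 and 12.46. Its paralog Crebbp (CBP) fell by 0.22 (SE 0.034, limma adjusted p = 0.000141), from 13.01, 13.01 and 13.05 to 12.80, 12.83 and 12.80, and neither gene's groups overlapped. Of Crebbp's other 3 probe sets 1 fell and 2 did not pass, and its probe sets averaged did not pass (-0.089, limma adjusted p = 0.120). The log2 ratio of Ep300 to Crebbp was 0.46 higher on shRNA arrays (SDs 0.071 and 0.062). Kat5 (TIP60) fell by 0.20 (SE 0.061), a call lost without shRNA array 3 (-0.17, limma adjusted p = 0.0553), and its other probe set fell by 0.25. Of 11 further acetyltransferase genes 4 rose and 4 fell, led by Brpf1 (0.44, SE 0.066) and Hat1 (0.38, SE 0.042), and by the MyoD coactivator Ncoa2 (-0.25, SE 0.038) and Kat6b (-0.23, SE 0.049).

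**Figure D3:**
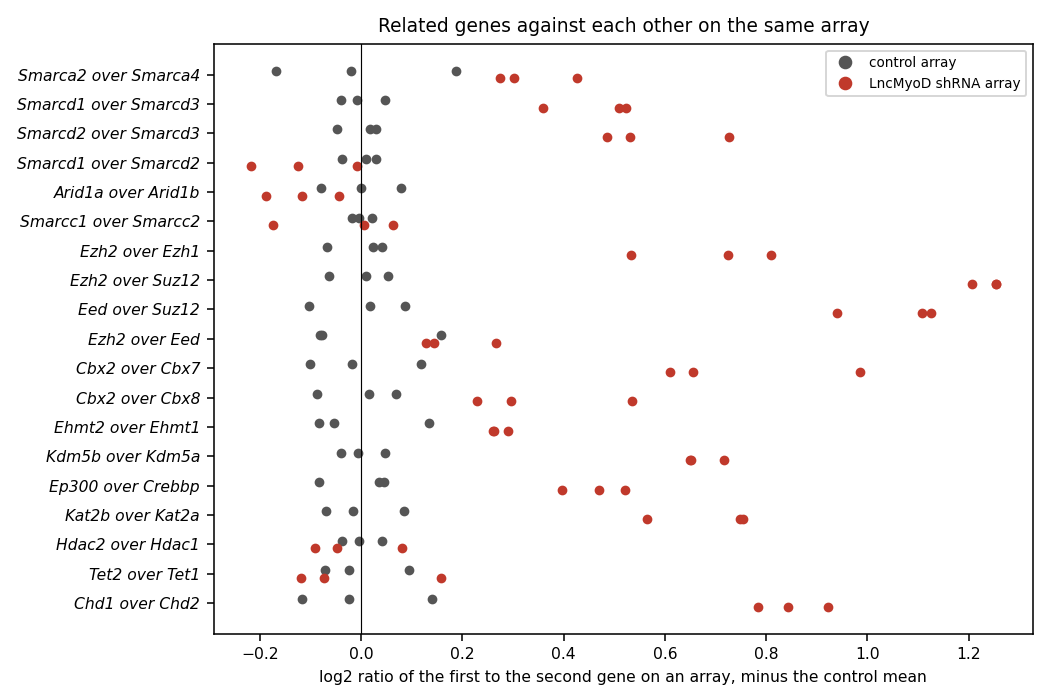
Log2 ratio of the first to the second gene on each array, minus the control mean (x axis), for 19 pairs of related genes. Grey points are control arrays and red points LncMyoD shRNA arrays. The ratio of Ezh2 to Suz12 shifted most (1.24), and that of Hdac2 to Hdac1 overlapped between the groups.

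Hdac11, the only class IV deacetylase and one that removes fatty acyl groups, had the largest decrease. Its control arrays stood at 11.03, 10.97 and 11.03 and its shRNA arrays at 10.10, 10.15 and 10.11, with no overlap. The fall was 0.89 on the log2 scale (SE 0.049, limma adjusted p = 1.39e-08), and its other probe set fell by 0.82 (SE 0.057). Sirt1, a NAD-dependent deacetylase that acts on MyoD and PCAF, rose by 0.30 (SE 0.043, limma adjusted p = 7.43e-05).

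The class I deacetylases overlapped between the groups. Hdac1, which binds MyoD in myoblasts, read 11.64, 11.60 and 11.55 in controls and 11.58, 11.54 and 11.66 in shRNA samples. Hdac2 read 12.67, 12.60 and 12.63 against 12.52, 12.66 and 12.64, and Hdac3, the enzyme of the NCoR corepressor, 10.67, 10.66 and 10.46 against 10.52, 10.58 and 10.60. The 95% intervals of the differences were -0.11 to 0.090, -0.12 to 0.067 and -0.16 to 0.10. Of 11 further deacetylase and corepressor genes 3 rose and 5 fell. Hdac10, which acts on polyamines, rose by 0.86 (SE 0.12) from a control mean of 6.46, below the 6.50 at which the filter on low signals begins, and Sirt7 rose by 0.56 (SE 0.067). Sap30, a Sin3 subunit, and Sirt2 fell by 0.51 each (SE 0.063 and 0.041).

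Among histone demethylases 2 of 5 rose and 2 fell. Kdm5a and Kdm5b, which remove methyl groups from lysine 4 of histone H3, moved apart on their brightest probe sets. Kdm5a fell from 11.29, 11.23 and 11.26 to 10.78, 10.82 and 10.82, a change of -0.45 (SE 0.044, limma adjusted p = 2.25e-06). Kdm5b rose from 11.60, 11.62 and 11.60 to 11.84, 11.81 and 11.81, or by 0.22 (SE 0.038, limma adjusted p = 0.000353). Their other probe sets differed: of 6 tested for Kdm5a 4 fell and 2 did not pass, and of 3 for Kdm5b 2 rose and 1 stood at -0.32 (limma adjusted p = 0.0612). With probe sets averaged neither passed (Kdm5a -0.14, limma adjusted p = 0.0918, and Kdm5b 0.042, 0.564). Kdm1a (LSD1), which acts on lysine 4 and lysine 9 and is needed for myogenin expression, fell by 0.37 (SE 0.038, limma adjusted p = 3.94e-06), on both probe sets. Its partner Rcor1, from the list of further genes, fell by 0.44 (SE 0.042).

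Kdm6b (JMJD3), which removes the PRC2 mark, rose by 0.34 (SE 0.037, limma adjusted p = 5.91e-06) on a probe set ending in _x_at. Its only other tested probe set did not pass (0.24, limma adjusted p = 0.167). Kdm4a, a lysine 9 demethylase, stood at -0.15 (SE 0.061, limma adjusted p = 0.0577) and passed when the arrays were centred. Of 13 further genes of this group 3 rose, led by Kdm3a (0.36, SE 0.043) and Jmjd6 (0.34, SE 0.044), and 6 fell, Kdm3b by the most (-0.75, SE 0.068).

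Of the lysine 9 enzymes, Ehmt2 (G9a), which also methylates MyoD, rose by 0.35 (SE 0.062, limma adjusted p = 0.000404) and Setdb1 by 0.26 (SE 0.062, limma adjusted p = 0.00331), on both of its tested probe sets. Ehmt1 (GLP), the partner of G9a, stood 0.075 higher (95% interval -0.051 to 0.20). Ash2l, a subunit shared by the MLL family of lysine 4 methyltransferases, fell by 0.32 (SE 0.063, limma adjusted p = 0.000867), on both probe sets. Its partner Wdr5 (-0.074) and the monomethylating enzyme Setd7 (0.012, 95% interval -0.11 to 0.14) did not pass. Among the arginine methyltransferases Prmt5, required for early MyoD-dependent chromatin opening, fell by 0.22 (SE 0.044, limma adjusted p = 0.000817). Prmt5 was read by its only probe set, of the less specific _s_at kind. Carm1 (-0.057, 95% interval -0.18 to 0.063), a coactivator, and Prmt1 (-0.025, 95% interval -0.11 to 0.059) did not pass.

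Further methyltransferase genes held the largest change of any chromatin gene examined here, each gene read on its brightest probe set. Kmt5a, which adds a single methyl group to lysine 20 of histone H4 and peaks in mitosis, fell by 1.18 (SE 0.036), from 13.21 ± 0.021 to 12.02 ± 0.031 (SD, n = 3 each), or 2.27-fold. Nsd2, a lysine 36 enzyme, fell by 0.81 (SE 0.055), while Kmt5c and Nsd3 rose by 0.35 (SE 0.095) and 0.25 (SE 0.052). Of 8 lysine 9 and heterochromatin genes 2 rose, Suv39h2 (0.33, SE 0.12, with overlapping groups) and Wiz (0.16, SE 0.056), and 2 fell, Prdm2 (-0.75, SE 0.054) and Trim28 (-0.21, SE 0.039). Of 11 lysine 4 genes 4 rose, led by Dpy30 (0.40, SE 0.052) and Setd1a (0.29, SE 0.038), and 2 fell, Rbbp5 (-0.34, SE 0.070) and Men1 (-0.21, SE 0.072). Of 5 arginine methyltransferase genes Prmt2 fell by 0.48 (SE 0.037), and Prmt7 (0.18, SE 0.067) and Prmt6 (0.13, SE 0.040) rose.

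Dnmt3a, which methylates DNA de novo, stood at 11.51, 11.43 and 11.45 in controls and at 11.85, 11.88 and 12.08 in shRNA samples. The groups were apart, with an increase of 0.48 (SE 0.058, limma adjusted p = 1.49e-05), and all 5 of its probe sets rose, by 0.35 to 0.71. Tet2, which oxidises methylcytosine, fell by 0.18 (SE 0.047, limma adjusted p = 0.00620), but not as the mean of its probe sets (-0.13, limma adjusted p = 0.110). Tet1 and Tet3 overlapped between the groups on the probe sets that stand for them (-0.17 and 0.11), although 1 of the other 2 tested probe sets of Tet1 fell by 0.66. That probe set had an shRNA mean of 6.18, below the 6.50 at which the filter on low signals begins. It was tested only through its control arrays (mean 6.84), so its fall is not read as support. Of 9 further DNA methylation genes tested 5 rose and 0 fell, with 5 at an unadjusted p under 0.05. That is 55.6% past the threshold, against 58.5% of all genes, of which 35.7% rose and 22.8% fell. With 9 genes, no trend of the group is read from these counts. The genes that rose were led by the maintenance enzyme Dnmt1 (0.62, SE 0.047) and Uhrf2 (0.54, SE 0.061).

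**Figure D4:**
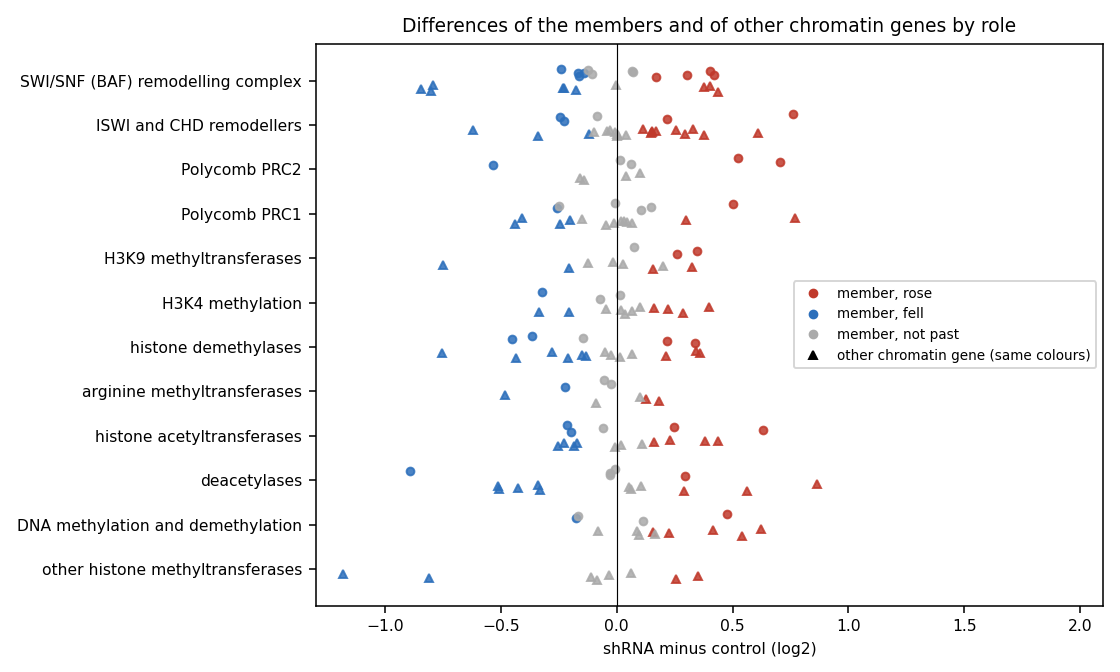
Difference between shRNA and control (log2, x axis) for the 56 genes (circles) and 124 other chromatin genes that were tested (triangles), by role (y axis). Red marks increases, blue decreases past the threshold and grey the rest. Kmt5a, in the bottom group, lies farthest left (-1.18), and the DNA methylation genes that passed lie to the right except Tet2.

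Of the 136 other chromatin genes listed, 128 had a probe set and 124 were tested, of which 40 rose, 35 fell and 49 did not pass. That is 60.5% past the threshold, against 58.5% of all genes, with a median difference of 0.019 against 0.045. Each of these genes was read on its brightest probe set, and agreement with its other probe sets was not examined.

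Agreement between probe sets limits how these values can be read. Of 140 probe sets that name these 56 genes, 122 were tested. Among the tested probe sets that do not stand for a gene, 32 had the same call as the called gene they belong to, 13 did not pass and 0 were called the opposite way in limma's test, and 21 belonged to genes that did not pass. Of those 21, 5 passed: in Smarca4, Arid2 (2 of them), Chd2 and Tet1, that of Tet1 with an shRNA mean below the filter on low signals. The 32 with the same call include the dimmest probe set of Suz12 (shRNA mean 6.36). It was tested only through its control arrays and is not read as support.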

How the data were processed

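RNA of 6 samples was hybridised to Affymetrix mouse expression arrays, 3 for each group. The values are log2 signals per probe set as deposited by the authors, 45101 for each array, from 4.48 to 14.6. PLIER and MAS5 are both named, per the submitters' processing notes, and which of them made these values is not stated. All array medians over the whole table were 7.23, so the deposited log2 values had already been scaled. Of the probe sets 34958 had 1 gene symbol, 932 several and 9211 none, and only the first kind named a gene.

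Control probe sets (64) and the 40% of the others with the lowest mean (18015) were left out, leaving 27022. Groups were compared with limma 3.58.1 (lmFit, eBayes with a trend) in R 4.3.3, with p-values adjusted over all 27022 by Benjamini-Hochberg. On simulated data of that size the fit recovered 70% of 100 probe sets changed by 0.5 and 92% of 100 changed by 1, with 3.57% of calls false. No other probe sets were changed in that simulation, whereas 58.5% of all genes passed in the data. The adjustment of p-values depends on that share, so these rates do not carry over to the data. The number of arrays limits the precision. Arrays of the same group correlated at 0.996 to 0.997 over probe sets.

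The genes and lists were chosen with earlier results of these data known. All 56 genes found were described, with per-array values for those with a difference of at least 0.5 and for their relatives. Such values were also given for Smarca4, Smarcd3, Kdm5a, Kdm5b, Ep300, Crebbp and Dnmt3a, whose differences were smaller. From the list of further chromatin genes, up to 2 in each direction with the largest differences were named for each role. LncMyoD itself was not matched to a probe set, so its level is not analysed here.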

Additional observations from a re-analysis of the deposited data

How the results depend on the processing

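The 17 alternatives changed the filter, scaling, probe set rule, variance model or block, or left out 1 array. Over them 29 to 38 of the genes passed the threshold, and 32 to 35 when 1 array was left out. Of the 33 called genes 25 kept the call in every alternative that gave them a value (16 of the 17 for Cbx2, Prmt5 and Kat2b, which the strictest filter or the probe set rule left out), 8 lost it at least once (Smarcb1, Smarcc1, Kdm5a, Kdm5b, Kdm6b, Crebbp, Kat5 and Tet2) and 0 called genes changed sign, while 12 others passed at least once; the cause was not tested. With the replicate number as a block 32 passed, without Smarcc1. Same-numbered arrays deviated from their group means with correlations of -0.134, -0.0616 and 0.0307, and not every array correlated best with its own number, so the numbers were not taken as pairs. Signs turned only in genes that did not pass. Arrays centred on their medians over the tested probe sets gave -0.049 for Ezh1, -0.00065 for Jarid2 and -0.052 for Setd7, quantile normalization -0.047 for Ezh1, averaged probe sets -0.0046 for Ezh1 and 0.031 for Kat2a, and leaving out _x_at and _s_at probe sets 0.030 for Cbx7. Leaving out 1 array gave -0.045 to 0.070 for Ezh1, -0.045 to 0.087 for Setd7, -0.019 to 0.0074 for Bmi1, -0.059 to 0.0057 for Prmt1, -0.041 to 0.016 for Hdac1, -0.054 to 0.017 for Hdac2, -0.10 to 0.0059 for Hdac3 and -0.0073 to 0.11 for Arid2.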
